A study of Arabidopsis thaliana with 4 samples.

Results

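GRP14, GRP18, GRP17, GRP16, GRP19 and GRP20 are neighbouring Arabidopsis thaliana genes for the glycine-rich oleosins of the pollen coat. They were taken by their gene codes (AT5G07510, AT5G07520, AT5G07530, AT5G07540, AT5G07550 and AT5G07560), and all 6 have a value of their own among the 30897 genes listed in the deposited files. Messenger RNA of whole siliques, the pods that enclose the seeds, was profiled in the Col-0 accession grown in long days at 22 °C, with no treatment named for any group. Stage 1 fruits were 0 to 5 days past flower opening, stage 2 fruits 6 to 10 days, stage 3 fruits 11 to 15 days and stage 4 fruits 16 to 20 days. Each stage was measured in 1 library, so no difference below has a replicate error, a test or a p-value. The labels give the tissue as silique and name no dissection.

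Oleosins are small proteins with a long water-repelling hairpin that anchors in the surface of oil droplets, and the turn of the hairpin is the proline knot. Seed oleosins coat the oil bodies of the embryo. The glycine-rich oleosins of this cluster are known instead from the tapetum, the nursing cell layer of the anther, which releases them onto the pollen surface when it breaks down. In the pollen coat, GRP17 is needed for pollen to take up water promptly on the stigma.

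The cluster lay on the minus strand of chromosome 5 and spanned 13366 bases, from 2377710 to 2391075 in TAIR10 coordinates. The loci ran from GRP14 (chr5:2377710-2378829) through GRP18 (chr5:2379924-2381317), GRP17 (chr5:2382468-2384521), GRP16 (chr5:2386013-2387249) and GRP19 (chr5:2388310-2389249) to GRP20 (chr5:2390207-2391075). Gaps between neighbours measured 957 to 1491 bases, and no other locus of the files lay in them. The RefSeq models of TAIR10.1 gave GRP17 the longest product, with 543 residues, and GRP19 the shortest, with 106 residues. GRP18 had 226 residues, GRP16 190, GRP14 185 and GRP20 153. Glycine made up 26.7% of GRP17, 23.2% of GRP14, 19.9% of GRP18 and 19.5% of GRP16. It made up only 10.4% of GRP19 and 9.8% of GRP20, which lies within the 9.2% to 14.1% of the 5 seed oleosins. After the knot, the glycine share of the 4 glycine-rich members was higher still, at 25.1% to 32.3%.

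All 6 members held a proline knot (a proline, 5 residues of any kind, serine, proline, 3 residues of any kind, proline), which is the part of the protein that identifies the family. The 36 bases that encode it are shown for the longest member, for the 2 with the least glycine and for OLEO1, the main seed oleosin, with the 4 codons of the fixed residues in capitals.
GRP17: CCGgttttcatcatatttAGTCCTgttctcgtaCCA
GRP19: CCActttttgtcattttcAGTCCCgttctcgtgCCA
GRP20: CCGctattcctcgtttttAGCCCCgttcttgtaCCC
OLEO1: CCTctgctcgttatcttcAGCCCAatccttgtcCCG
GRP19 matched GRP17 at 28 of the 36 bases, GRP20 at 27 and OLEO1 at 21. The other members, GRP14, GRP18 and GRP16, matched it at 29 to 31 bases. Among the other seed oleosins, AT3G01570 matched GRP17 at 28 bases, as many as GRP19, and OLEO2, OLEO3 and OLEO4 at 23 each. These bases alone therefore do not separate the members from the seed oleosins. Over whole proteins, the 15 pairs of members were 30.7% to 71.9% identical over the shorter protein, with GRP14 and GRP18 the closest pair. The longest identical stretch in any pair of transcripts was 47 bases, also between GRP14 and GRP18, which is shorter than the 100-base reads.

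The sequences just before the transcript starts also resembled each other. A 60-base block from the minus strand of TAIR10.1 is shown for 5 members because the same words recur in it. The blocks were cut to end at gttttgcatg or gtttcgcatg, so their shared ending follows from that choice. The 5 shown have the first form, which ends in the reverse complement of CATGCA. Of these 5, 4 hold ACGTG, which starts at base 14 to 21 of the block and is missing in GRP16. Capitals mark ACGTG, the core of abscisic acid response elements, and CATGCA or its reverse complement, the core of the RY element known from seed gene promoters.
GRP14: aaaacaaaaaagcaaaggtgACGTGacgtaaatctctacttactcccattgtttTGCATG
GRP18: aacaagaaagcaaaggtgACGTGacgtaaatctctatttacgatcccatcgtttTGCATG
GRP17: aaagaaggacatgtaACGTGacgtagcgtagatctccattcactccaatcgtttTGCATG
GRP16: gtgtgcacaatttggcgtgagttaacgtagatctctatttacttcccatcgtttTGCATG
GRP19: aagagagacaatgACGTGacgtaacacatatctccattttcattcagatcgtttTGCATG
The blocks lay at chr5:2378858-2378917 for GRP14, chr5:2381327-2381386 for GRP18, chr5:2384603-2384662 for GRP17, chr5:2387328-2387387 for GRP16 and chr5:2389318-2389377 for GRP19. They ended 9 to 81 bases before the transcript start that the files give. In GRP20 the matching block fell inside the first exon of the RefSeq model, which starts farther upstream than the files' locus, and it is not printed. That block ends in gtttcgcatg and holds neither CATGCA nor its reverse complement.

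These words were chosen after the sequences had been seen, and a match describes letters only, not a site in use. The word acgtgacgta stood on the gene's own strand in 5 of the 6 members, all but GRP16, and in 0.0389% of 23152 promoters of the same 300-base length (250 bases before to 50 after the start). The word gttttgcatg stood in 5 members, all but GRP20, and in 0.0648% of those promoters. On either strand, ACGTG was present in 6 of 6 members and 27.7% of promoters, CATGCA in 5 members and 9.22%, and both together in 5 members and 2.80%. No ACGTG match overlapped a CATGCA match. Of the motifs searched besides these on either strand, AGAAA was in 6 members (89.9% of promoters), CANNTG in 3 (60.7%), TATAAA in 1 (53.3%) and CACGTG in 0 (8.4%). A CANNTG match overlapped a CATGCA match in GRP17 and in GRP16. ACGTG together with CATGCA was also found in 7 of 10 other oleosin genes, among them OLEO1, OLEO3 and the 3 oleosins known from both microspores and seeds. The pair was absent from OLEO2, OLEO4 and AT5G61610. For AT5G61610 the promoter was taken at the files' start, 24769765, while the RefSeq model starts downstream at 24770046. Most of the bases just before the RefSeq start were thus not searched. The words acgtgacgta and gttttgcatg were each found in 1 of the 10, AT5G07600, a glycine-rich oleosin gene outside the cluster.

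Expression was given as FPKM, the number of sequenced fragments scaled to transcript length and library size, which allows genes to be compared per length. The summed FPKM of the 6 members was 11.6, 9.02, 92.2 and 63.2 in stages 1, 2, 3 and 4. As deposited, the cluster was thus highest in the fruits of days 11 to 15. With the libraries set to equal FPKM sums it was highest at days 16 to 20, with 5.83, 10.8, 123 and 150 in stages 1 to 4. Under both, the 2 later stages stood above the 2 earlier ones. The number of members at 1 FPKM or more was 4, 3, 6 and 4 in the same order.

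**Figure D1:**
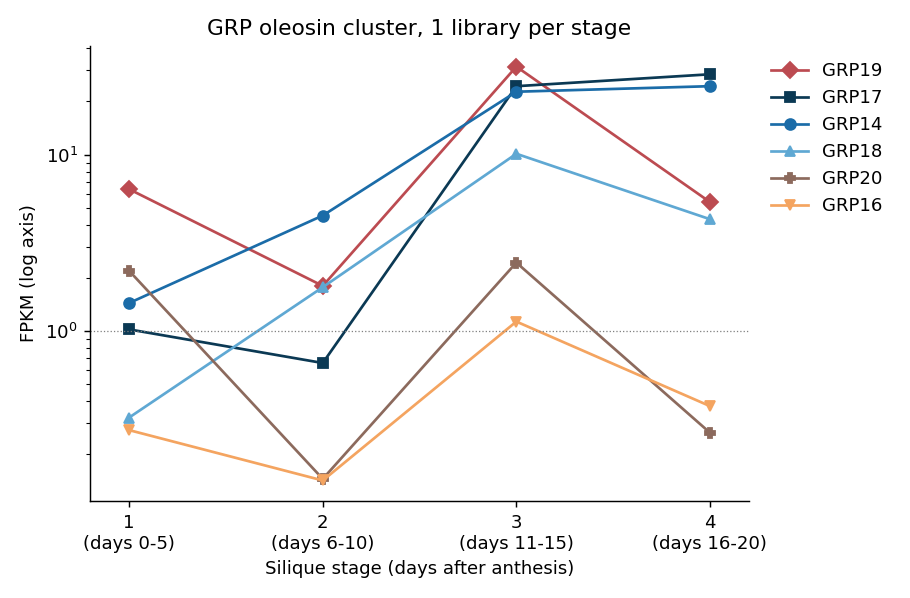
FPKM of each member on a log axis in stages 1 to 4 (1 library each), with a dotted line at 1 FPKM. All 6 points are above the line in stage 3, where GRP19 reaches 31.5 FPKM, and in stage 4 GRP17 and GRP14 stay at 28.5 and 24.4 FPKM while the other 4 are lower than in stage 3.

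GRP19, which encodes the smallest of the 6 oleosins, had the highest deposited value of any member, with 6.36, 1.80, 31.5 and 5.38 FPKM in stages 1 to 4. With equal FPKM sums the highest value was that of GRP17 in stage 4, at 67.6, against 42.0 for GRP19 in stage 3. It was the leading member in stages 1 and 3 and came after GRP17 and GRP14 in stage 4. Its stage 3 value as deposited placed it in the top 15.6% of all loci, against the top 52.6% in stage 2.

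GRP17, the main oleosin of the pollen coat, had 1.02, 0.658, 24.4 and 28.5 FPKM. GRP14 had 1.44, 4.51, 22.7 and 24.4 FPKM. Both were high in the 2 later stages, but GRP14 was already above its stage 1 level in stage 2, where GRP17 had the lower value. In stage 4 they were the leading 2 members and together made up 45.1% (GRP17) and 38.6% (GRP14) of the cluster's FPKM.

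GRP18, the closest relative of GRP14, had 0.323, 1.77, 10.1 and 4.30 FPKM. Its course followed that of GRP14 up to stage 3 at a lower level and then parted from it. The distance between the members' log2(FPKM + 1) courses, each centred on its own mean, was smallest for this pair, at 1.11, and largest for GRP17 and GRP20, at 4.04.

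GRP20 had 2.19, 0.145, 2.44 and 0.265 FPKM, and GRP16 had 0.274, 0.142, 1.13 and 0.375 FPKM. These were the lowest members in stages 2, 3 and 4, and neither made up more than 2.65% of the cluster's FPKM in those stages. By an estimate from the low values of each library, GRP16 rested on about 9 to 14 fragments in stages 1 and 2 and 47 to 57 in stage 3, and GRP20 on about 6 to 9 fragments in stages 2 and 4. Their low values are therefore imprecise from counting alone. The locus of GRP20 also shared 525 bases with a locus of the opposite strand, AT5G07570 with AT5G07572. The library kit does not keep the strand, so the reads of the 2 loci cannot be told apart there.

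As whole-series background, estimated depth was 59.0 to 98.8 M fragments (M, 10 to the power 6) per library on a relative scale. In what follows, rose and fell mean that log2(FPKM + 1) differed by at least 1, that the higher value was at least 1 FPKM and that neither value was 0. The median difference over all such readable loci was 0.00, -0.01, -0.01 and 0.01 for stage 2 against 1, 3 against 2, 4 against 3 and 4 against 1. When the libraries were set to equal FPKM sums, these medians became 1.06, 0.14, 0.76 and 1.94, and the share of higher among called loci became 92.2%, 60.5%, 91.8% and 93.8%, in place of 43.7%, 52.5%, 46.2% and 47.8%. When only loci of 300 bases or more were summed, the medians were 0.42, -0.39, 0.05 and 0.12, and 70.3%, 31.7%, 50.5% and 52.8% of called loci were higher.

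Stage 3 against stage 2 showed the broadest change of the cluster. Of the 6 members 5 rose and 0 fell, where 25.0% of 17533 loci were called by the same rule, 13.1% higher and 11.9% lower. The median of the members was 2.05 on the log2(FPKM + 1) scale, against -0.01 over all loci. GRP17 had 24.4 FPKM in stage 3, against 0.658 FPKM in stage 2, a log2 difference of 3.94. GRP19 had 31.5 FPKM in stage 3, against 1.80 FPKM in stage 2, a difference of 3.54. These 2 genes rose the most of the cluster. GRP14 rose by 2.10, GRP18 by 2.00 and GRP20 by 1.59. GRP16 had 1.13 FPKM in stage 3, against 0.142 FPKM in stage 2, and its difference of 0.90 missed the limit although the plain ratio was 7.97. With a 4-fold limit 3 members were higher, and without GRP20 4 of 5 were.

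**Figure D2:**
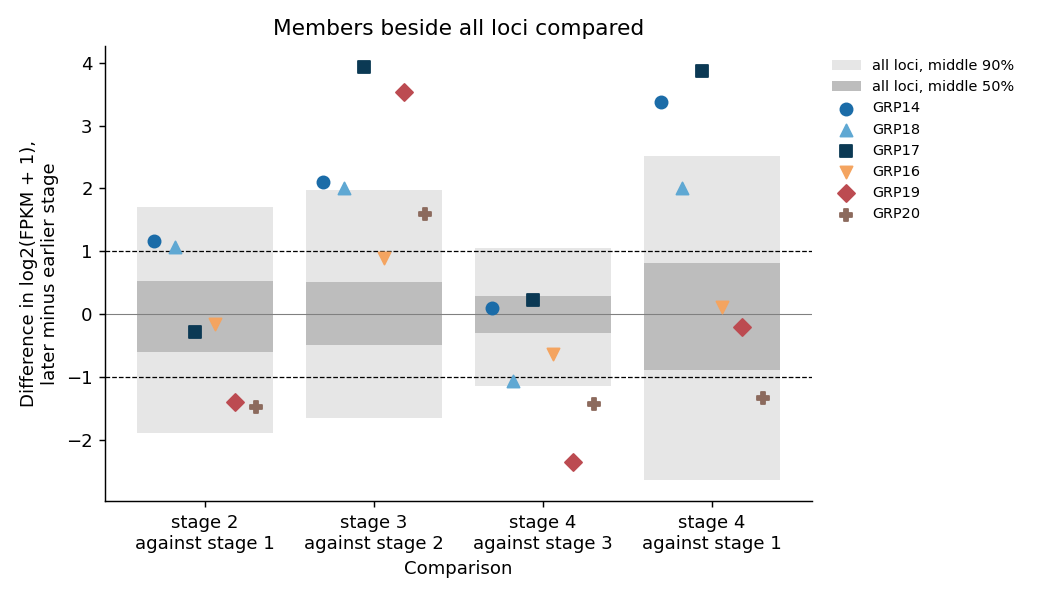
Difference in log2(FPKM + 1), later minus earlier stage, of each member (coloured points) for 4 comparisons, over the middle 50% (dark) and 90% (light) of all loci compared, with dashed lines at the limits of 1 and -1. In stage 3 against stage 2 all 6 points are above 0, from 0.90 to 3.94, and in stage 4 against stage 3 they spread from -2.35 to 0.22.

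Stage 2 against stage 1 divided the cluster. GRP14 and GRP18 rose and GRP19 and GRP20 fell, which is 4 of 6 called, where 27.1% of 17988 loci were called, 11.8% higher and 15.3% lower. The median of the 6 was -0.22, against 0.00 over all loci. GRP14 had 4.51 FPKM in stage 2, against 1.44 FPKM in stage 1, a difference of 1.17, and GRP18 had 1.77 FPKM, against 0.323 FPKM, a difference of 1.07. The stage 1 value of GRP18, which also enters stage 4 against stage 1, rested on only about 16 to 19 fragments. GRP19 had 1.80 FPKM in stage 2, against 6.36 FPKM in stage 1, a difference of -1.40. GRP20 had 0.145 FPKM in stage 2, against 2.19 FPKM in stage 1, a difference of -1.48. The pair that rose thus encodes the 2 most similar proteins, and the pair that fell encodes the 2 with the least glycine. GRP17 and GRP16 changed by -0.29 and -0.16, and both differences turn positive with equal FPKM sums; GRP16 was under 1 FPKM in both libraries. With 5 in place of 1 added to FPKM, or with a 4-fold limit, 0 members were called in this comparison, and with equal FPKM sums only GRP14 and GRP18 were, so these 4 calls are close to the limit.

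Stage 4 against stage 3 divided it again, along another line. GRP18, GRP19 and GRP20 fell and 0 members rose, where 11.9% of 16961 loci were called, 6.42% lower and 5.52% higher. The median of the 6 was -0.84, against -0.01 over all loci. GRP19 had 5.38 FPKM in stage 4, against 31.5 FPKM in stage 3, a difference of -2.35. GRP20 had 0.265 FPKM, against 2.44 FPKM, a difference of -1.44, and GRP18 had 4.30 FPKM, against 10.1 FPKM, a difference of -1.06. GRP19 thus lost the lead of the cluster in the oldest fruits. GRP17 had 28.5 FPKM in stage 4, against 24.4 FPKM in stage 3, and GRP14 had 24.4 FPKM, against 22.7 FPKM, differences of 0.22 and 0.10 that missed the limit. GRP16 differed by -0.63. With 5 added to FPKM or with a 4-fold limit, 1 member was called, and with equal FPKM sums GRP17 was called higher, at 1.03, and GRP18 was not called, at -0.36.

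Between the ends of the series, stage 4 against stage 1, GRP17, GRP14 and GRP18 rose and GRP20 fell. That is 4 of 6 called, where 43.4% of 17802 loci were called, 20.7% higher and 22.6% lower. The median of the 6 was 1.06, against 0.01 over all loci. GRP17 had 28.5 FPKM in stage 4, against 1.02 FPKM in stage 1, a difference of 3.87. GRP14 had 24.4 FPKM, against 1.44 FPKM, a difference of 3.38, and GRP18 had 4.30 FPKM, against 0.323 FPKM, a difference of 2.00. The 3 members with the largest increase over the whole series were those that follow each other at the GRP14 end of the cluster. GRP20, at the other end, had 0.265 FPKM in stage 4, against 2.19 FPKM in stage 1, a difference of -1.34. GRP19 differed by -0.21 and GRP16 by 0.11. With equal FPKM sums GRP20 was no longer called, at -0.37, and GRP19 was called higher, at 1.71, so that 4 members rose and 0 fell.

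The members' own shares show the change of leader. GRP19 made up 54.8%, 19.9%, 34.2% and 8.51% of the cluster's FPKM in stages 1 to 4. GRP14 made up 12.4%, 50%, 24.6% and 38.6%, and GRP17 made up 8.81%, 7.29%, 26.4% and 45.1%. GRP19 therefore led in stages 1 and 3, GRP14 in stage 2 and GRP17 in stage 4.

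The cluster was set beside the other oleosins, which carry the same hairpin, beginning with those that coat oil bodies of the seed. The 5 seed oleosins together had 19.1, 790, 25541 and 36992 FPKM, so the cluster's sum equalled 60.8%, 1.14%, 0.361% and 0.171% of theirs in stages 1 to 4. OLEO1 had 3.63, 256, 11565 and 15738 FPKM, OLEO2 had 1.24, 118, 4397 and 8019 FPKM, and OLEO4 had 8.57, 93.7, 4434 and 7583 FPKM. OLEO3 had 3.93, 189, 1358 and 1126 FPKM, and AT3G01570 had 1.72, 133, 3787 and 4527 FPKM. All 5 rose in stage 2 and again in stage 3, with medians of 5.62 and 5.21, and 0 were called in stage 4 against stage 3, with a median of 0.44. The seed oleosins thus rose a stage earlier than GRP17, GRP19 and GRP20 did, and 0 of them was called lower in any of the 4 comparisons.

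The 3 oleosins known from both microspores and seeds (the SM type) also rose in both early comparisons, with medians of 2.49 and 4.92. AT3G18570 had 0.345, 6.54, 227 and 255 FPKM, AT1G48990 had 0.344, 9.12, 223 and 259 FPKM, and AT2G25890 had 0.214, 2.51, 123 and 223 FPKM. AT5G61610, a tapetal-type oleosin gene outside the cluster, had 0.108, 0.743, 26.0 and 67.1 FPKM. It rose in stage 3 and again in stage 4, where GRP17 and GRP14 were not called and stood at 28.5 and 24.4 FPKM. AT5G07600, also of the tapetal type and the next oleosin gene along the chromosome with a row in the files, had 0.296, 0.0311, 0.117 and 0.0826 FPKM. It holds both 10-base promoter words of the members and was under 1 FPKM in every library.

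**Figure D3:**
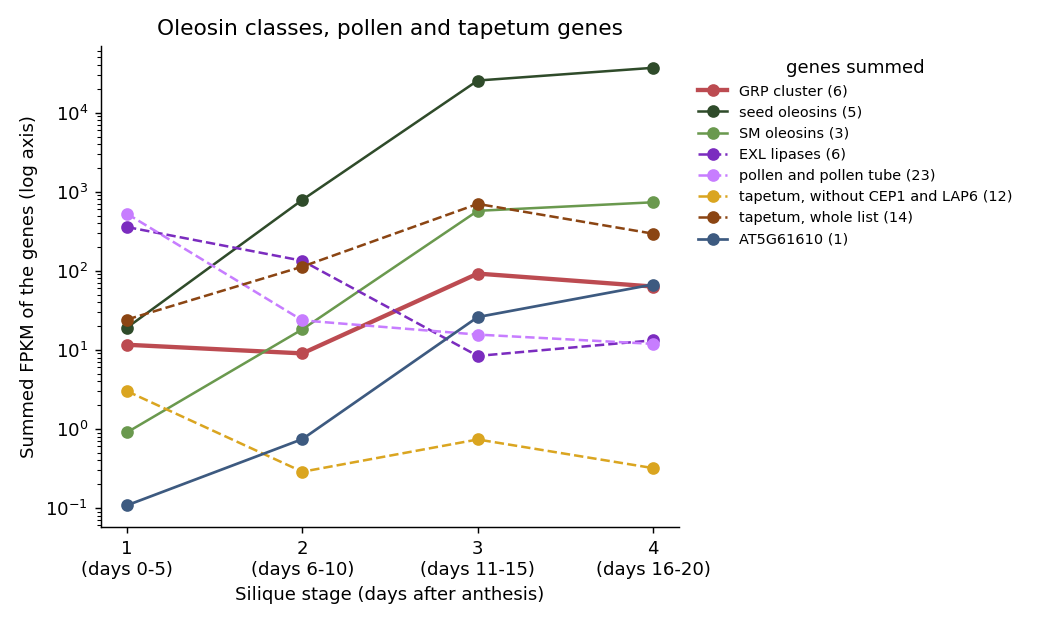
Summed FPKM on a log axis of the cluster, the other oleosin classes, the extracellular lipases EXL1 to EXL6, pollen genes and tapetum genes in stages 1 to 4. The number of genes summed is in brackets. The cluster (thick line) goes up in stage 3, as do the seed and SM oleosins. The seed and SM oleosins had already gone up in stage 2, where the cluster's deposited sum is lower than in stage 1. Pollen genes and lipases are highest in stage 1. The whole list of 14 tapetum genes is highest in stage 3, at 702 FPKM, nearly all of it CEP1. Without CEP1 and LAP6, taken out after their values had been seen, the other 12 stay at 3.0 FPKM or less.

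Pollen and anther genes were read beside the cluster because its members are known from the anther. The 23 pollen and pollen tube genes with a value (22 loci) summed to 527, 23.6, 15.6 and 11.9 FPKM in stages 1 to 4. AGP6 and AGP11, arabinogalactan proteins of the pollen wall, had 3.06 and 1.15 FPKM in stage 3, against 120 and 149 FPKM in stage 1. The joint locus of the pectin methylesterases VGD1 and VGDH1 had 0.773 FPKM in stage 3, against 123 FPKM in stage 1. In stage 2 against stage 1, 14 of the loci fell and 0 rose, with a median of -2.15, while GRP19 and GRP20 also fell. The part of pollen remains in the stage 1 values of GRP19 and GRP20 was not tested. In stage 3 against stage 2, when 5 members rose, 2 pollen loci fell and 0 rose, with a median of -0.13. With 0.1 in place of 1 added to FPKM, 2 fell and 1 rose. Some genes of the list took another course. MYB120 had 1.30, 0.334, 1.30 and 0.176 FPKM, and MYB101 had 4.25, 4.73, 5.60 and 3.35 FPKM. DUO1 and HAP2, under 1 FPKM in every library, were highest in stage 2.

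The extracellular lipases EXL1 to EXL6 include other main proteins of the pollen coat, and they took another course than the oleosins. Their sum was 358, 134, 8.38 and 13.2 FPKM. EXL3 (AT1G75900) made up most of it, with 333, 125, 6.03 and 8.10 FPKM. EXL1 (AT1G75880) had 16.4, 7.01, 1.84 and 3.93 FPKM, and EXL2 (AT1G75890) had 4.11 and 0.539 FPKM in stages 1 and 2, 0 in stage 3 and 0.0373 FPKM in stage 4. EXL5 (AT1G75920) had 1.86, 0.850, 0.442 and 0.989 FPKM. EXL4, which like GRP17 is needed for prompt hydration of pollen, had 1.57, 0.523, 0.0658 and 0.105 FPKM, and EXL6 had 0.415 FPKM in stage 1 and was listed at 0 after it. In stage 3 against stage 2, 2 of the 4 readable lipase loci fell and 0 rose, with a median of -1.0, against 2.05 for the oleosins.

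Of the tapetum and sporopollenin genes, 14 of 17 have a row and sum to 24.2, 113, 702 and 295 FPKM. Nearly all of this is CEP1, a cysteine protease of the dying tapetum that also acts in other cells that die by programme, with 17.2, 108, 696 and 290 FPKM. It rose in stages 2 and 3 and fell in stage 4. LAP6, a sporopollenin enzyme, shares its locus with another gene and stood at 4.02 to 4.83 FPKM throughout. The remaining 12 genes, a selection made after the values had been seen, summed to 3.0, 0.287, 0.735 and 0.319 FPKM. In stage 3, 8 of these 12 were at 0 and none reached 1 FPKM. Of these 12, A7 was listed at 0 in stage 3, against 1.41 FPKM in stage 1, and A9 had 0.144 FPKM, against 0.893 FPKM. A6 (AT4G14080), TDF1 and CYP703A2 were instead highest in stage 3, at 0.436, 0.138 and 0.0177 FPKM. Their stage 1 values were 0.186, 0 and 0.00893 FPKM. CEP1 and the cluster were both highest in stage 3, and the part of tapetal cells in the values of the cluster was not tested. From whole fruits, more cells of a type and more RNA per cell cannot be told apart.

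Flower organ genes gave a mixed reading. The petal and stamen gene PI had 28.7, 3.11, 1.78 and 4.55 FPKM, and the nectary sugar transporter SWEET9 had 12.2, 0.609, 0.0719 and 0.138 FPKM. AP3, the partner of PI, had 33.4, 89.3, 91.8 and 49.4 FPKM. In stage 3 against stage 2, 1 of the 5 flower part genes rose, DAD1, a lipase of jasmonate synthesis in stamens, with 3.57 FPKM in stage 3, against 1.25 FPKM in stage 2.

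The genes that flank the cluster did not share one course. On the GRP14 side, the nearest locus, AT5G07505, was listed at 0 in all 4 libraries. Beyond it PEI1, an embryo zinc finger protein, had 0.423, 15.5, 101 and 138 FPKM and rose in stages 2 and 3. AT5G07490 stayed under 1 FPKM, and KUOX1 was listed at 0 in stages 1 and 2 and had 0.583 and 1.30 FPKM in stages 3 and 4.

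On the GRP20 side, the opposite-strand locus of AT5G07570 with AT5G07572 had 1.20, 1.42, 4.79 and 0.940 FPKM. The RefSeq model of AT5G07571, another oleosin gene on the minus strand, lies wholly within this locus. Reads of AT5G07571 therefore cannot be told apart from those of the locus. The locus is thus no separate reading of a gene that is not an oleosin. The value of the locus rose by 1.26 in stage 3 and differed by -1.58 in stage 4, the same calls as for GRP20 with which it shares bases. A second, narrower locus for AT5G07570 alone, nested in the first, had 0.594, 0.233, 1.99 and 0.144 FPKM, with differences of 1.28 and -1.39. This narrower locus lies outside the GRP20 locus used here. It starts within the RefSeq model of GRP20, however, and ends within that of AT5G07571. Farther out, AT5G07580, an ethylene response factor, had 29.4, 26.3, 16.7 and 46.5 FPKM, and AT5G07590, a WD40 repeat protein, had 14.4, 11.4, 5.05 and 5.26 FPKM. AT5G07580 was not called in stage 3 and rose by 1.42 in stage 4, and AT5G07590 differed by -1.04 in stage 3, a fall.

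**Figure D4:**
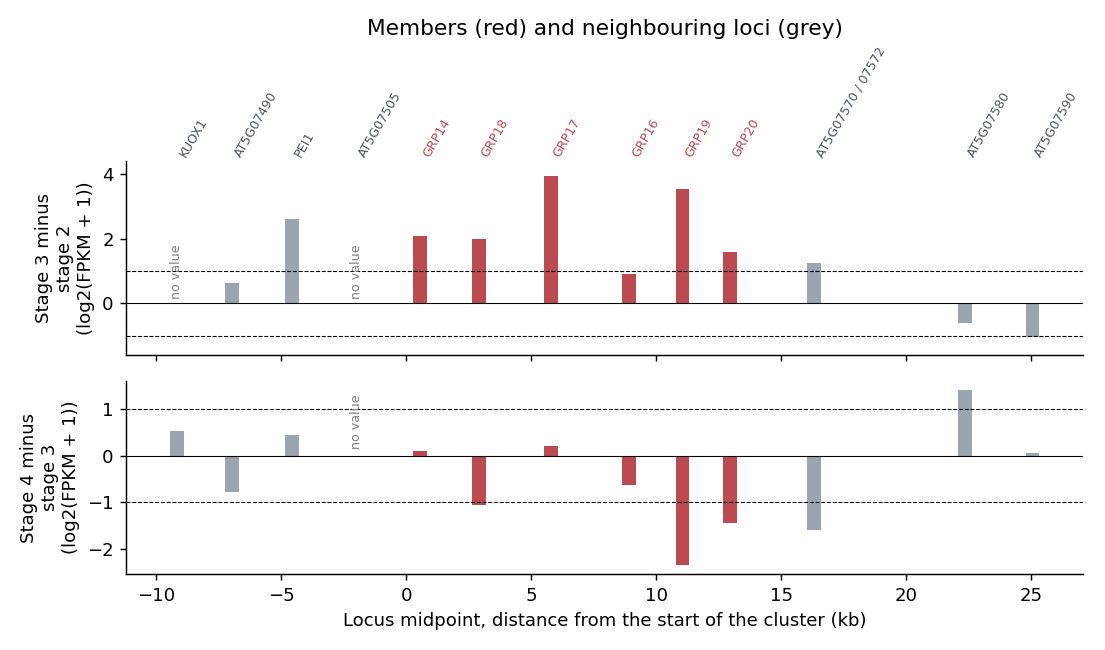
Difference in log2(FPKM + 1) of the 6 members (red) and their neighbours (grey) along the chromosome, in stage 3 minus stage 2 (top) and stage 4 minus stage 3 (bottom), with dashed lines at the limits of 1 and -1. In the top panel the 6 red bars run from 0.90 to 3.94 and PEI1 and the AT5G07570 locus are also above the upper limit; "no value" marks loci listed at 0.

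The genes with the course most like that of GRP19, the highest member as deposited, were sought among 11763 single protein-coding loci by distance between centred log2(FPKM + 1) courses over the 4 libraries. The nearest was AT3G13660, a dirigent-like protein, at a distance of 0.28 and with 3.41, 1.02, 18.7 and 2.53 FPKM. Next came AT4G24140, an alpha/beta hydrolase, at 0.64, and AT4G16640, a matrixin, at 0.64. CYP86A1, a fatty acid hydroxylase of suberin synthesis, followed at 0.68 with 4.50, 1.64, 27.9 and 2.30 FPKM, and GPAT5, an acyltransferase of the same pathway, at 0.70 with 10.4, 1.36, 27.0 and 5.67 FPKM. The haemoglobin HB1 stood at 0.72, and the transcription factor NAC6 and the polygalacturonase QRT2 at 0.73. Each of these 8 genes had its highest value in stage 3.

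GRP17 was searched the same way after its values had been seen, for its different course. The nearest gene was AT1G70680, a caleosin-related protein, which belongs to another family of oil droplet proteins, at a distance of 0.19 and with 93.6, 88.4, 1153 and 1406 FPKM. It was followed by AT1G04778 at 0.26, AT1G62500, of the lipid transfer and albumin superfamily, at 0.41, and AT1G24430, an acyltransferase, at 0.46. These 4 genes were high in both later stages and low in both earlier ones, as GRP17 was, at levels that differed widely. With only 4 libraries, a small distance is a description of 4 points and many genes can share it.

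**Figure D5:**
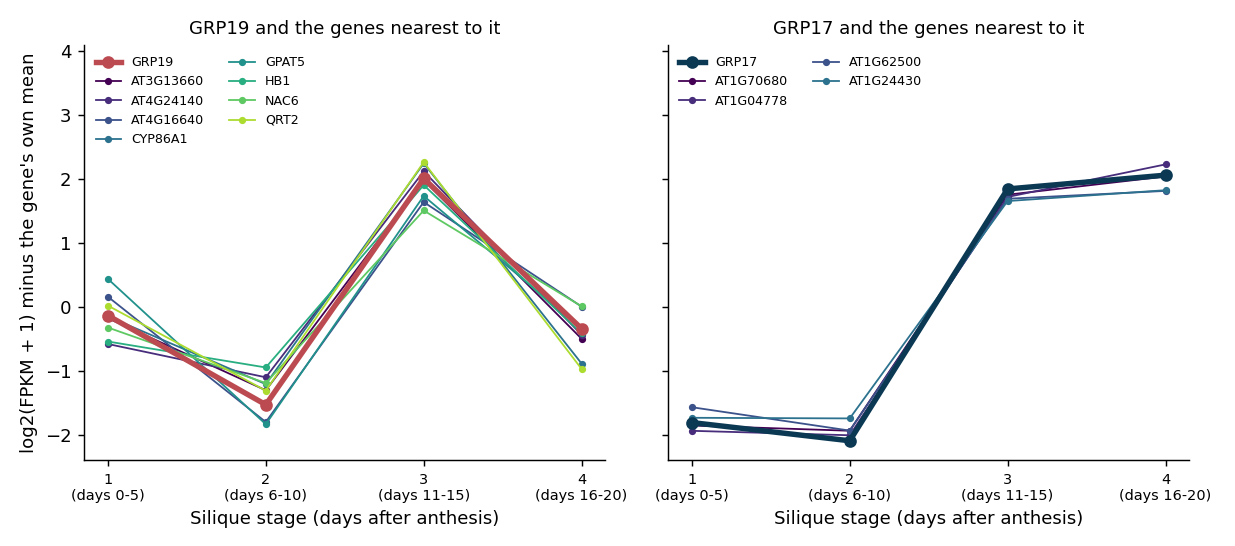
Course of log2(FPKM + 1), minus each gene's own mean, over stages 1 to 4 for GRP19 with the 8 nearest genes (left) and GRP17 with the 4 nearest (right). GRP19 and its neighbours have a single high point in stage 3, and GRP17 and its neighbours are high in stages 3 and 4.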

How the data were processed

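Total RNA of siliques was made into libraries with the second version of the TruSeq RNA kit, which does not mark the strand, and sequenced from both ends over 100 cycles, per the labels' protocols. Per the submitters' processing notes, TopHat, Cufflinks, Cuffdiff and the TAIR10 build were used; their versions are not given in the sources used here. Values deposited by the authors are FPKM per locus. Stages follow the label of each sample's age. For some stages other day limits stand in the growth protocol, and these were not used.

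Since FPKM are no counts, no count model was used. Differences were taken as log2(FPKM + 1) from the authors' deposited FPKM, a scale that understates the change of low genes. A call needed a difference of at least 1 and 1 FPKM or more in the higher library; loci at 0 in either library were left out. Of the members, GRP16 was under 1 FPKM in both libraries of stage 2 against 1 and of stage 4 against 1, so 5 of 6 could be called there; medians are over all 6. Members, lists and rules were chosen with earlier results of these data known. Named were all members, all genes of lists of 6 or fewer with a row, up to 4 of the highest in longer lists, the 8 genes nearest to the highest member (highest FPKM at least 10, no 0) and the 4 loci on each side. Pollen and tapetum genes of the longer lists with another course were added after their values had been seen.

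Relative depth came from the low values of 2675 loci, where 70.1% to 77.9% lay within 0.2 of a whole fragment (40.0% if evenly spread). Each depth was chosen to bring these same values near whole numbers, so the 40.0% is no reference for a fitted share. The number of bases taken off the transcript length could not be settled, so fragment numbers are ranges and cover counting error only. AT5G07571, AMS, LAP5, TKPR1, TIP5;1, MYB21, MYB24 and MYB57 were not analysed here. Sequences, gene models and names are from RefSeq, TAIR10.1. All 26945 single-gene loci found there by identifier overlapped their gene, and 4 of the 6 members had both ends equal to a RefSeq transcript. Protein features come from translated coding models, aligned with BLOSUM62 (gap open 10, extend 0.5). Computation used Biopython 1.88, pandas 2.3.3, matplotlib 3.10.9, SciPy 1.17.1 and numpy 2.4.6 under Python 3.11.15, and the calling rule was tested on simulated data. Alternatives were added constants of 0.1 and 5, FPKM minimums of 0 and 5, 3 rescalings, a 4-fold limit, loci at 0 kept, and GRP20 left out.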

Additional observations from a re-analysis of the deposited data

How the results depend on the processing

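Each stage has 1 library, so no alternative can show how far fruits of one age vary. No paired analysis was possible because each stage has 1 library. With 5 added to FPKM, the number of members called became 0 for stage 2 against 1 (4 as reported), 1 for stage 4 against 3 (3 as reported) and 2 for stage 4 against 1 (4 as reported). An FPKM minimum of 5 left 1 member for stage 2 against 1 and 2 for stage 4 against 1. A 4-fold limit left 0 for stage 2 against 1, 3 for stage 3 against 2 (5 as reported) and 1 for stage 4 against 3. Equal FPKM sums left 2 for stage 2 against 1, GRP14 and GRP18; for stage 4 against 3 the count stayed at 3, but GRP17 was then higher, at 1.03, and GRP18 was no longer called, at -0.36. GRP19 in stage 4 against 1 was 1.71 with equal FPKM sums and -0.21 as deposited. These follow from the alternatives' construction, since each raises the limit for low genes or multiplies a library by one factor (0.502 to 2.37). Of 236 values of single members under the alternatives, 199 kept their direction and call, 30 lost the call and 4 gained one. Many of the 199 could not have changed. Keeping loci at 0 (24 values), dropping the FPKM minimum (24) and leaving out GRP20 (20) cannot alter any value or call of these members. The tally is therefore no measure of how stable the calls are. The sign changed in 3, all with equal FPKM sums: GRP19 above, and GRP17 and GRP16 in stage 2 against 1, at 0.24 and 0.04, which were called under neither. The log2 ratio of the cluster's FPKM sums, stage 4 over stage 3, was 0.29 with equal FPKM sums and -0.54 as deposited, a comparison of scalings chosen after seeing the data. Leaving out GRP20, an alternative chosen after seeing the data, gave 3, 4, 2 and 3 members called of 5 in the 4 comparisons. Of the 8 genes nearest to GRP19, 7 were shared with 0.1 added and 6 with 5 added. Low depth limits GRP16 and GRP20 most.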
